A study of Mus musculus with 12 samples.

Results

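The genes described here are 31 mouse genes of sterol and fatty acid synthesis that are known targets or parts of the SREBP pathway, of the 54232 genes in the deposited count table. They were taken by name: each is the row whose Ensembl identifier maps to a listed symbol. No measured value entered this rule, but the list was chosen with earlier results of these data known. Of these, 22 belong to the sterol side (the enzymes from Hmgcs1 to Dhcr7, then Insig1, Srebf2, Scap, Stard4 and Acat2) and 9 to the fatty acid side (Fasn, Acaca, Scd1, Scd2, Elovl6, Fads1, Fads2, Acly and Acss2). All 31 passed the filter on low counts. RNA was sequenced from RAW264.7, a mouse macrophage line, as wild type, Ing4 knockout or Socs1 knockout, each left untreated or given lipopolysaccharide (LPS, a bacterial cell wall component) at 100 ng/ml for 3 h. Each of the 6 groups had 2 libraries, 12 in all. The labels name no clone and do not describe how either gene was disrupted. The column names carry a number for each knockout that all its libraries share, with no statement of what it marks. If it marks a line, genotype and line cannot be told apart. The labels also do not say whether paired libraries are separate cultures, so all p-values measure the spread between these libraries, which may be technical.

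SREBP transcription factors are made as membrane proteins of the endoplasmic reticulum, where SCAP carries them to the Golgi for cleavage when sterols are low and INSIG proteins hold them back when sterols are high. The freed SREBP2 (gene Srebf2) mainly drives sterol synthesis and uptake, and SREBP1 (gene Srebf1) mainly drives fatty acid synthesis and desaturation. In macrophages both arms are known to respond to Toll-like receptor ligands, and sterol synthesis is known to be held down by oxysterols and interferon.

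SREBPs bind sterol regulatory elements close to the start site, usually beside a CCAAT box, which the factor NF-Y binds, or a GC box, which Sp1 binds. RefSeq start site windows of 300 bases (250 before to 50 after the start, GRCm38.p6) were at hand for 24 of the 31 genes, and none was used for Fdps, Fdft1, Sqle, Stard4, Scd1, Scd2 and Fads1. The stretches printed here lie before the first annotated exon, on the strand of the gene, and are shown for 4 of the sterol genes described most closely and, from the fatty acid side, for Fasn. They are Hmgcs1 at chr13:119690101-119690350 (plus strand), Insig1 at chr5:28071162-28071362 (plus), Hsd17b7 at chr1:169969242-169969455 (minus), Dhcr7 at chr7:143822917-143823144 (plus) and Fasn at chr11:120824548-120824797 (minus). Capitals mark CCAAT boxes on either strand (CCAAT or ATTGG) and, in Hmgcs1, the match to TCACNCCAC, where N is any base.
Hmgcs1: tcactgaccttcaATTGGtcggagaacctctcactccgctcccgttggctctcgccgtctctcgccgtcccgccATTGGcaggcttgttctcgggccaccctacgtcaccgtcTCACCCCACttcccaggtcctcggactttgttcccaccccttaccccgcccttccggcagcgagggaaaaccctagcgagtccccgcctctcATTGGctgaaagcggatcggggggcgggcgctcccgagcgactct
Insig1: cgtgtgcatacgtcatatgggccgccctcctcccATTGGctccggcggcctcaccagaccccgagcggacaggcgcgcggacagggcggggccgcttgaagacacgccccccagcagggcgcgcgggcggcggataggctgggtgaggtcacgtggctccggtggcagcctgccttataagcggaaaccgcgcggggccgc
Hsd17b7: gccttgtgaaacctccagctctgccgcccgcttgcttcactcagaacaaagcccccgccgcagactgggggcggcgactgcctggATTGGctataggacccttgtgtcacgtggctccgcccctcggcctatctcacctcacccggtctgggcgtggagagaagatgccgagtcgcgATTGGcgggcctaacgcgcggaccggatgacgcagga
Dhcr7: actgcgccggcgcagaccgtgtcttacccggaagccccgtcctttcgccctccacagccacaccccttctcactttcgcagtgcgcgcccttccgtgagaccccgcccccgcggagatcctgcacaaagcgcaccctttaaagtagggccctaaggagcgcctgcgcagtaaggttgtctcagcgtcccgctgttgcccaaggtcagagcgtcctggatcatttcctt
Fasn: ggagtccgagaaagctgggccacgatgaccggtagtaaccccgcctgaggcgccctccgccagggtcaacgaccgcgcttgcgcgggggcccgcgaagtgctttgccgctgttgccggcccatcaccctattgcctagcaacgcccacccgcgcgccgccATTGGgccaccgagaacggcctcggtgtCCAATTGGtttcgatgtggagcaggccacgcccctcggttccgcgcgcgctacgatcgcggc
Each motif was searched on both strands, and in Fasn CCAAT and ATTGG overlap. The letters TCACNCCAC, a form of the sterol regulatory element, were found in the window of 1 of 18 sterol genes, Hmgcs1, where the match begins 137 bases before the start, and of 0 of 6 fatty acid genes. Of all 27025 genes with a window, 1.44% held them. CCAAT was present in 16 of 18 sterol genes (88.9%) and 3 of 6 fatty acid genes, against 41.1% of all genes and 43.2% of those tested. The GC box GGGCGG was present in 17 of 18 sterol genes (94.4%) and 3 of 6 fatty acid genes, against 38.2% of all genes and 68.0% of those tested. The E-box CACGTG was present in 5 of 18 sterol genes (27.8%) and 0 of 6 fatty acid genes, against 8.09% of all genes and 12.0% of those tested. Some genes have several windows, and a gene was counted if any of its windows matched. By window, CCAAT was present in 16 of 22 for sterol genes (72.7%), against 37.4% of all windows. The printed start of Dhcr7 holds no CCAAT, and the CCAAT and E-box matches counted for this gene lie in its other windows. A match describes these letters only, and its absence says nothing of binding.

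The libraries held 17250815 to 24377950 counts. The 10 macrophage markers summed to 13829 to 26173 CPM (counts scaled by library size) in every library. The summed markers of T, B and NK cells, of fibroblasts and epithelium, and of hepatocytes and adipocytes stayed at or under 0.169 CPM, with Cd3e, Ms4a1, Ncr1, Epcam, Krt8, Alb and Adipoq at 0 in all 12. The knocked-out genes were no check of the labels at the RNA level, since a transcript can persist without its protein. Ing4 was nearly silent in all genotypes, with 6 to 29 counts a library where it was knocked out and 2 to 10 in wild type. Socs1 after LPS reached 2.73 and 7.14 CPM where it was knocked out, against 9.08 in both wild-type libraries. The first LPS-treated Socs1 knockout library stood apart: its value was -16.2 on the first principal component, where the other 5 LPS-treated libraries lay at 62.4 to 74.4 and the untreated at -66.1 to -41.7. Called the outlying library here, it held Ifit1, an interferon-induced gene, at 13.6 CPM against 669 to 1883 in the other LPS-treated libraries, and Tnf, a central inflammatory cytokine, at 1381 against 3703 to 10530.3. Il1b, Cxcl2, Ccl4 and Irf7 also lay below the other LPS-treated libraries. Not every LPS response gene was low: Nfkbiz stood at 1016 CPM against 450 to 1000, and Zfp36 at 506 against 348 to 603. Results that rest on the outlying library are given with and without it. Without it the LPS-treated Socs1 knockout is 1 library, and its spread is taken from the other groups.

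Compared per length, as RPKM (CPM per kilobase of exon), the fatty acid genes held the top of the order in untreated wild type. Scd2, a stearoyl-CoA desaturase that makes oleate, stood at 181 ± 53.1 RPKM (SD, n = 2 here and below), followed by the fatty acid desaturase Fads1 (73.9 ± 1.81), the acetyl-CoA source Acly (64.7 ± 3.50), the desaturase Fads2 (60.7 ± 4.50) and the fatty acid synthase Fasn (37.5 ± 3.12). Acly and Fads2 did not differ beyond their spread. On the sterol side Mvd, which makes isopentenyl diphosphate, stood highest at 37.1 ± 5.23, level with Fasn, and Srebf2 next at 31.9 ± 2.13. From Ebp to Msmo1 the next 5 genes spanned 28.8 to 25.6 RPKM. Hmgcs1, which makes HMG-CoA for the mevalonate pathway, and Insig1 stood near the middle, at 18.1 ± 3.69 and 17.8 ± 2.85. Lowest were Idi1 (1.97 ± 0.596), an isomerase of isoprenoid units, Acss2 (1.70 ± 0.608), which makes acetyl-CoA from acetate, and the sterol reductase Tm7sf2 (1.07 ± 0.0590), and the spreads of Idi1 and Acss2 overlapped. Over all 12 libraries the widest ranges of RPKM were those of Scd2 (19.4 to 278), Hmgcs1 (15.5 to 102) and Insig1 (15.5 to 102).

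**Figure D1:**
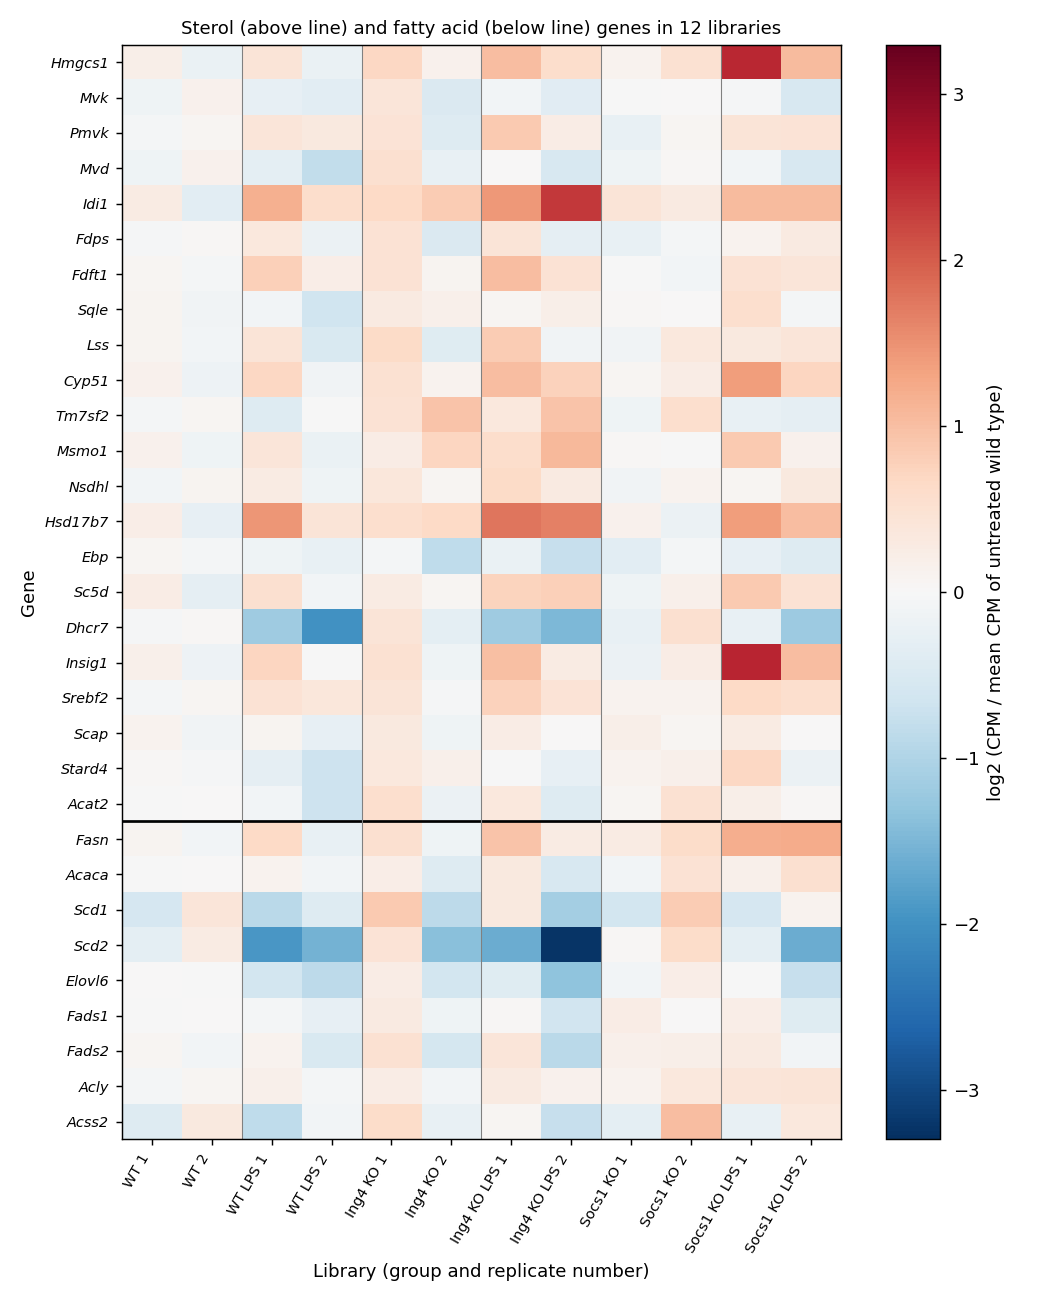
Each cell is the log2 ratio of a gene's CPM in a library (12 columns, by group and library number) to its mean in the 2 untreated wild-type libraries, with sterol genes above the line and fatty acid genes below. The strongest colours are those of Hmgcs1 and Insig1 in the first LPS-treated Socs1 knockout library (468 and 316 CPM) and of Scd2 in the second LPS-treated Ing4 knockout library (106 CPM).

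After LPS both libraries of the sterol genes Hsd17b7, Idi1 and Srebf2 stood above both untreated ones in every genotype, which made 3 of 31 members against 12.8% of all genes. Those of Dhcr7 and the desaturase gene Scd2 stood below in every genotype, 2 of 31 against 11.5%. Both shares were under those of all genes. With 12 libraries no member passed an adjusted p of 0.05 by edgeR in any genotype. In wild type this was 0 of 31 against 2.89% of all 12771 genes tested, and 5 members against 22.6% of genes reached an unadjusted p of 0.05. In the Ing4 knockout it was 0 against 8.02%, with 5 members against 28.2% unadjusted, and in the Socs1 knockout 0 against 1.98%, with 6 against 17.0% unadjusted. DESeq2 called 2 members in wild type (background 11.2%), 4 in the Ing4 knockout (17.1%) and 3 in the Socs1 knockout (6.59%). Without the outlying library, edgeR called 1 member in wild type (14.5%), 3 in the Ing4 knockout (20.4%) and 0 in the Socs1 knockout (15.8%). With a block for the library number within each genotype it called 3 (14.2%), 6 (27.2%) and 1 (6.02%). The share of members called was below that of all genes in each of these tests except in the Socs1 knockout by DESeq2 and at an unadjusted p of 0.05, where 3 and 6 of 31 are slightly above it. In bulk RNA, fewer cells with a transcript and less transcript per cell cannot be told apart.

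Counted by overlap of the libraries, 0 of 31 members had all 6 LPS-treated libraries above the 6 untreated (7.70% of genes) and 0 had them all below (6.05%). Without the outlying library, 0 stood above (14.6%) and 2, Dhcr7 and Scd2, stood below (13.5%). In wild type both LPS-treated libraries were above both untreated ones for 5 members (30.7% of genes), namely Pmvk, Idi1, Fdft1, Hsd17b7 and Srebf2, and below for 9 (30.7%), among them Mvd, Dhcr7, Stard4, Scd2 and Elovl6. In the Ing4 knockout 5 were above (29.1%) and 3 below (28.6%). In the Socs1 knockout 13 were above (22.5%) and 4 below (20.0%). The median log2 change of the 22 sterol genes was 0.09 in wild type, 0.24 in the Ing4 knockout and 0.31 in the Socs1 knockout, and that of the 9 fatty acid genes -0.16, -0.35 and -0.20. In the Socs1 knockout these medians and the 13 members above include the outlying library. By library number, the pair holding it had sterol and fatty acid values of 0.45 and 0.11. The other pair had 0.18 and -0.30. Over the alternative settings the fatty acid median ran from -0.95 to 0.32 in the Ing4 knockout. In the Socs1 knockout it ran from -0.33 to 0.30, so its sign depended on the setting in both. The median of all genes in wild type was 0.01. Upper-quartile scaling lowered the LPS changes of all genes by a median of 0.11 to 0.14 and turned the sterol median in wild type to -0.02, with the median of all genes at -0.11.

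**Figure D2:**
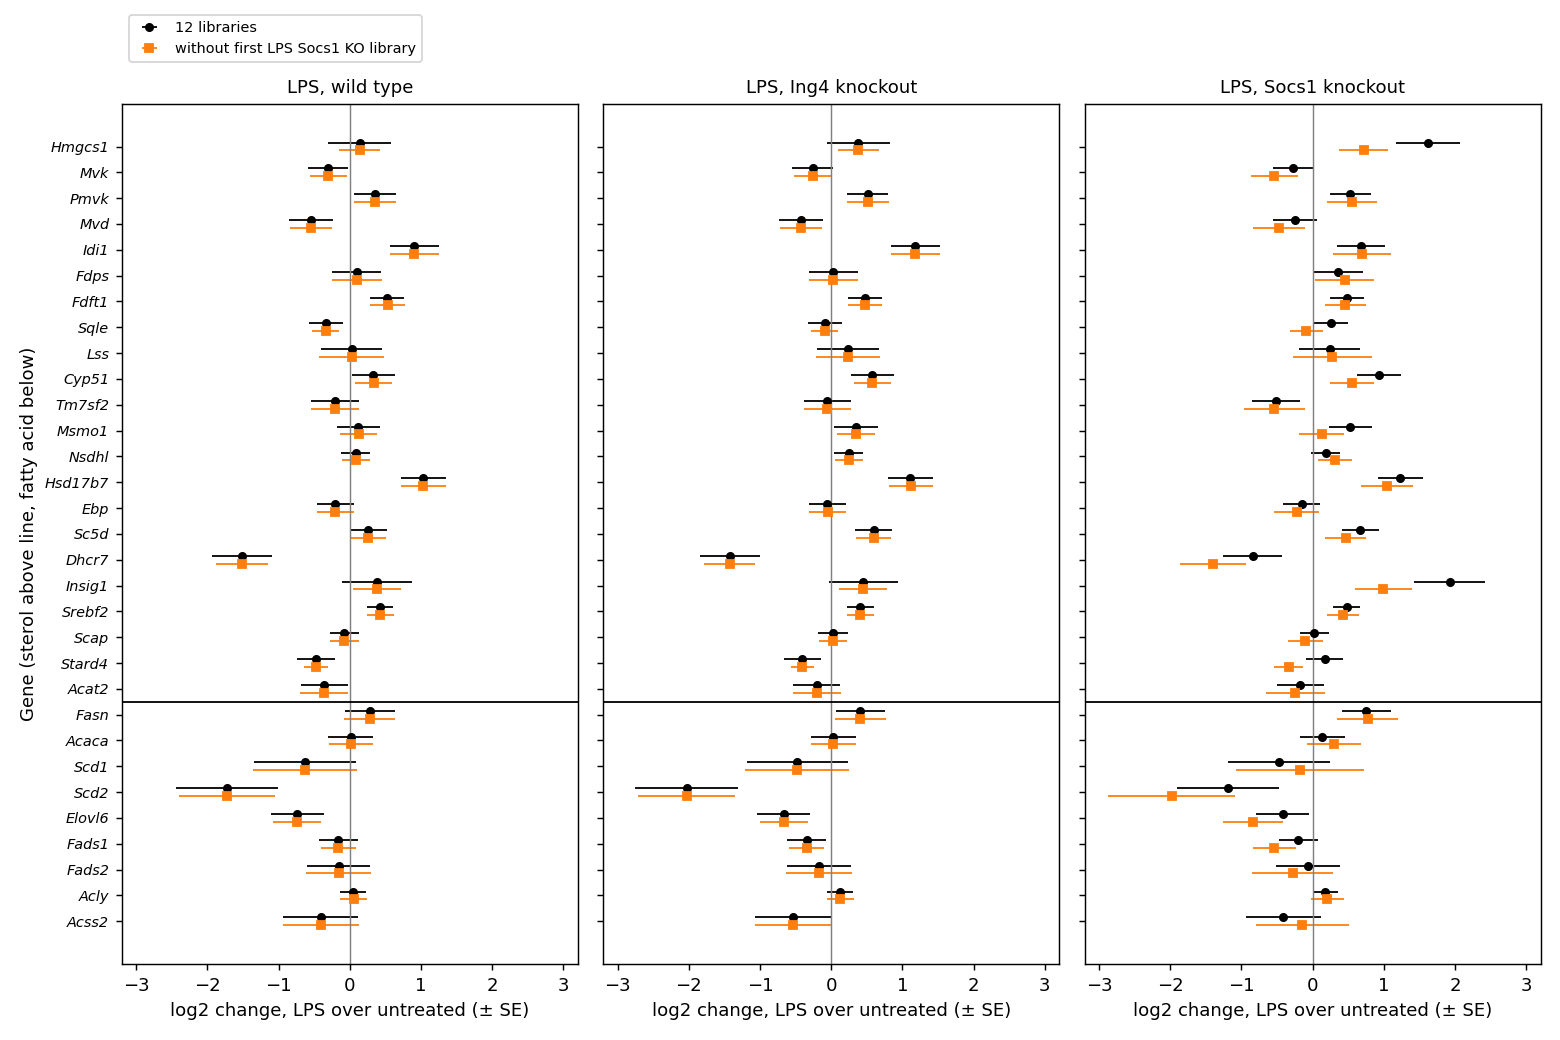
Log2 change after LPS (horizontal axis, bars show the SE) for each gene in each of the 3 genotypes, from all 12 libraries in black and without the outlying library in orange. Hsd17b7 lies between 1.03 and 1.23 and Dhcr7 between -1.52 and -0.84 in black, and in the Socs1 knockout Insig1 moves from 1.92 to 0.99 when that library is left out.

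Among the sterol enzymes, Hsd17b7, a 3-ketosteroid reductase of the demethylation steps, was higher after LPS in every genotype. It stood at 51.7 and 37.1 CPM in untreated wild type and 122 and 59.5 after LPS, at 65.4 and 69.7 against 151 and 142 in the Ing4 knockout, and at 48.8 and 38.7 against 116 and 89.6 in the Socs1 knockout. The untreated and LPS-treated libraries did not overlap within any genotype, and the second LPS-treated wild-type library lay below both untreated Ing4 knockout libraries. The log2 change was 1.03 ± 0.32 (SE) in wild type (edgeR adjusted p = 0.11), 1.11 ± 0.32 in the Ing4 knockout (0.063) and 1.23 ± 0.32 in the Socs1 knockout (0.099). DESeq2 called it in all 3 genotypes (adjusted p = 0.030, 0.012 and 0.0092), as did edgeR with the genotype block (0.018, 0.0084 and 0.010). In the Ing4 knockout Hsd17b7 also rose without the outlying library (adjusted p = 0.035).

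Idi1 had few counts and the largest LPS difference of the mevalonate steps in wild type and the Ing4 knockout. It stood at 8.39 and 5.43 CPM untreated and 15.7 and 10.2 after LPS in wild type, and at 11.0 and 12.4 against 18.5 and 34.6 in the Ing4 knockout. The Socs1 knockout had 9.32 and 8.46 against 14.2 and 14.3. The groups did not overlap within a genotype, and the second LPS-treated Ing4 knockout library was the highest of all 12. The log2 changes were 0.91 ± 0.34 (edgeR adjusted p = 0.17), 1.18 ± 0.34 (0.064) and 0.68 ± 0.34 (0.35). Idi1 passed in the Ing4 knockout by DESeq2 (0.015), by edgeR with the block (0.018) and without the outlying library (0.038), and in wild type, of these, only with the block (0.041).

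Dhcr7, which reduces 7-dehydrocholesterol to cholesterol and so also consumes the precursor of vitamin D, had the most negative LPS change of the sterol genes in each genotype. Its libraries held 64.2 and 67.8 CPM in untreated wild type and 29.5 and 16.6 after LPS, and 88.7 and 52.7 against 29.2 and 23.5 in the Ing4 knockout. In the Socs1 knockout it stood at 56.1 and 94.9 untreated and at 55.8 and 28.5 after LPS, the higher of which is the outlying library. The other 5 LPS-treated libraries all lay below the 6 untreated. The log2 change was -1.52 ± 0.42 in wild type (edgeR adjusted p = 0.092), -1.42 ± 0.42 in the Ing4 knockout (0.070) and -0.84 ± 0.42 in the Socs1 knockout (0.35). Without the outlying library Dhcr7 fell in wild type (adjusted p = 0.025) and the Ing4 knockout (0.026), and the value in the Socs1 knockout was -1.40 ± 0.46 (0.076). DESeq2 called it in wild type (0.0077) and the Ing4 knockout (0.0094). In the authors' deposited table of 867 genes for wild type, Dhcr7 has a log2 of -1.33 and an adjusted p of 0.00796. It is the only member there, and the table lists only genes with an absolute log2 above 1.

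The other enzymes lay between these. Fdft1, the squalene synthase, was at 54.8 and 49.9 CPM untreated and 90.2 and 61.0 with LPS in wild type (log2 0.53 ± 0.24, edgeR adjusted p = 0.23), and passed in the Ing4 knockout with the genotype block (0.044). Pmvk, the phosphomevalonate kinase, had a log2 of 0.36, 0.51 and 0.53 in wild type, Ing4 knockout and Socs1 knockout, and passed with the block in the Ing4 knockout (0.035). Sc5d, the lathosterol oxidase, had 0.26, 0.60 and 0.67. Cyp51, the lanosterol demethylase, had 0.33, 0.58 and 0.93. Mvd lay at -0.54, -0.43 and -0.25, and Mvk, the mevalonate kinase, at -0.30, -0.26 and -0.28. Steps of 1 route thus had opposite signs, and Sc5d, Cyp51, Mvd and Mvk did not pass by edgeR in any of the 3 genotypes with the filter on low counts. Lss, Nsdhl and Fdps, of which Lss makes lanosterol, had values between 0.03 and 0.36 in all 3 genotypes, which upper-quartile scaling turned negative for all of them in wild type (-0.09 to -0.01). By the annotation 16 of the 31 members overlap another gene. On the other strand these are Hmgcs1, Mvd, Idi1, Fdft1 (with Ctsb), Lss, Cyp51 (with Akap9), Scap, Acaca, Elovl6 and Acss2 (with Ggt7 and Gss). On the same strand they are Fdps, Tm7sf2 (with Vps51), Srebf2, Scd2, Fads1 and Acly, and again Acaca, Elovl6 and Acss2. Whether reads were counted by strand is not stated, so the values of members with an overlap on the other strand are less certain. Counting by strand would not separate reads of genes on the same strand, so those values are less certain too.

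Of the regulators, Srebf2 was modestly higher after LPS in each genotype. Its libraries stood at 219 and 240.2 CPM untreated and 318 and 298 after LPS in wild type, at 307 and 224 against 389 and 316 in the Ing4 knockout, and at 250.4 and 249 against 361 and 335 in the Socs1 knockout. The groups did not overlap within a genotype. The log2 changes were 0.43 ± 0.19 (edgeR adjusted p = 0.22), 0.41 ± 0.19 (0.19) and 0.48 ± 0.19 (0.25), and with the genotype block Srebf2 rose in wild type (0.046) and the Ing4 knockout (0.033). Scap, the escort, had log2 values of -0.08, 0.02 and 0.02, with an SE of 0.21 in each. Stard4, a sterol transfer protein, was lower after LPS in wild type (86.6 and 82.5 against 69.4 and 52.7 CPM) and the Ing4 knockout (107 and 95.1 against 83.3 and 69.7), with log2 values of -0.47 ± 0.26 and -0.41 ± 0.26 that did not pass. In the Socs1 knockout its LPS-treated libraries lay on both sides of the untreated ones, at 137 and 74.1 against 92.2 and 95.8. Acat2, which makes acetoacetyl-CoA, had log2 values of -0.36, -0.20 and -0.17.

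On the fatty acid side, Scd2, a stearoyl-CoA desaturase, had the most negative LPS change in each genotype. It stood at 785 and 1195 CPM in untreated wild type and 264 and 336 after LPS, and at 1361 and 381 against 319.9 and 106 in the Ing4 knockout. The Socs1 knockout had 1017 and 1519 against 791 and 320.4. LPS-treated libraries lay below untreated ones within each genotype, although the second untreated Ing4 knockout library was close to the LPS-treated wild type. The log2 change was -1.72 ± 0.72 in wild type (edgeR adjusted p = 0.20), -2.03 ± 0.73 in the Ing4 knockout (0.11) and -1.19 ± 0.71 in the Socs1 knockout (0.45). Scd2 fell in the Ing4 knockout by DESeq2 (0.011) and by edgeR with the genotype block (0.031). Its paralogue Scd1, at 75.7 and 146 CPM in untreated wild type and 60.1 and 83.2 after LPS, had log2 values of -0.63, -0.48 and -0.47 with SEs of 0.71 to 0.72.

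Fasn, which builds palmitate, was at 435 and 387 CPM untreated and 653 and 345 after LPS in wild type, at 592 and 375 against 790.5 and 494 in the Ing4 knockout, and at 499.6 and 619.9 against 937 and 953 in the Socs1 knockout. The groups overlapped in wild type and the Ing4 knockout and were apart in the Socs1 knockout, where both LPS-treated libraries were nearly equal. The log2 changes were 0.28 ± 0.35 (edgeR adjusted p = 0.69), 0.41 ± 0.35 (0.49) and 0.76 ± 0.35 (0.32). Elovl6, which extends palmitate, had -0.74 ± 0.37, -0.67 ± 0.37 and -0.42 ± 0.37. Acaca, the acetyl-CoA carboxylase of the committed step, and Acly had values between 0.01 and 0.18. Fads1 and Fads2 lay between -0.35 and -0.06. None of these passed by edgeR in the 12 libraries with the filter on low counts. The signs differed: Fasn, Acaca and Acly were positive and the desaturases, Elovl6 and Acss2 negative in each genotype, but upper-quartile scaling turned Acaca negative in all 3 genotypes and Acly in wild type and the Ing4 knockout.

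**Figure D3:**
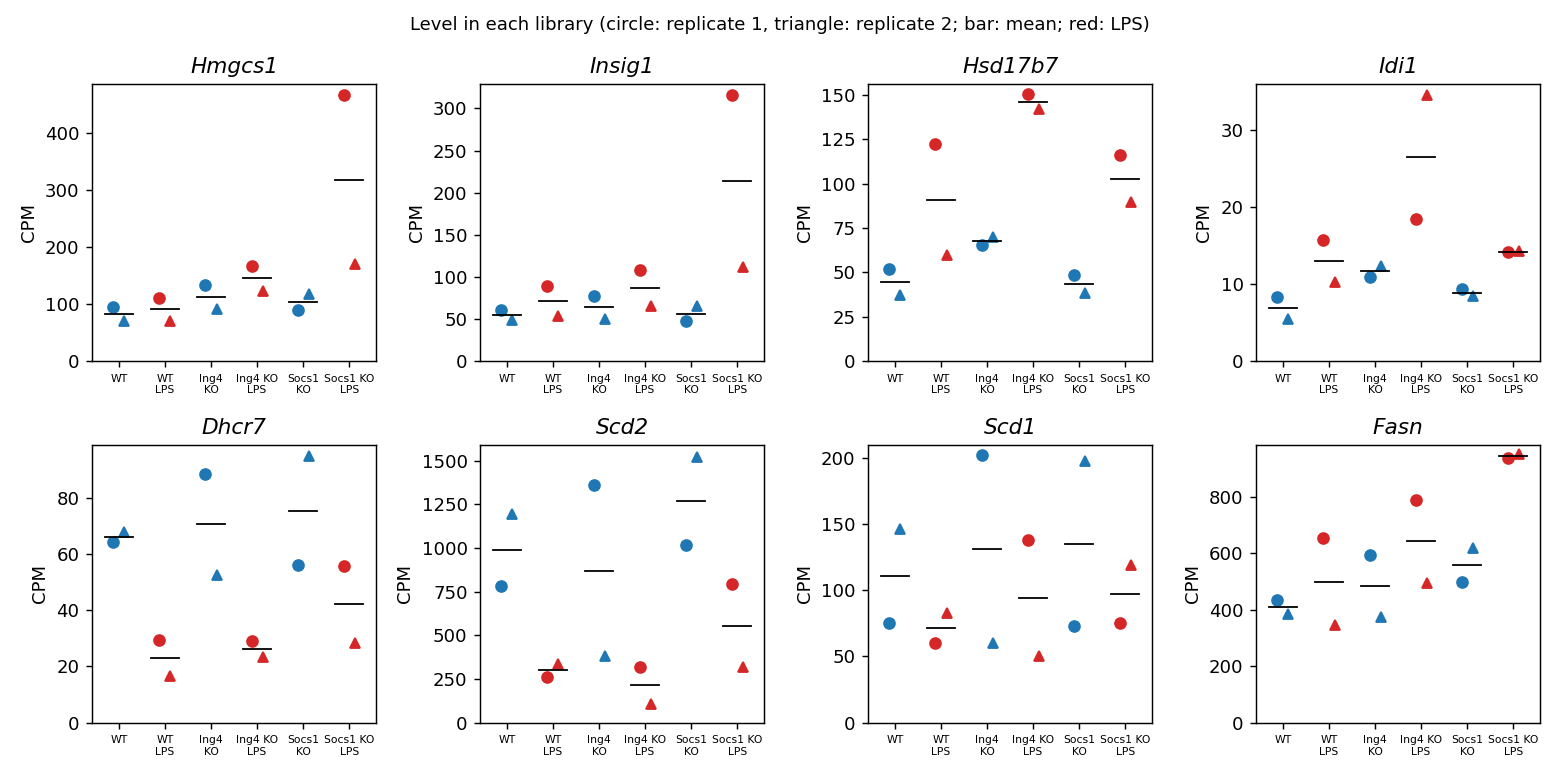
CPM of 8 genes (vertical axes from 0) in the 6 groups, with a circle for the first and a triangle for the second library, a bar for their mean, blue for untreated and red for LPS. Hsd17b7 is higher and Scd2 lower in both LPS-treated libraries of each genotype, while for Hmgcs1 and Insig1 the circle of the LPS-treated Socs1 knockout (468 and 316 CPM) lies far above the triangle (170.3 and 112).

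Between genotypes, the Ing4 knockout had a slightly higher median over the sterol genes than wild type. Its libraries overlapped wild type in that median, and no single gene passed. Without LPS 0 of 31 members were called by edgeR (0.141% of genes), 0 at an unadjusted p of 0.05 (5.25%) and 0 by DESeq2 (0.987%). After LPS 0 were called (0.102%), 3 at an unadjusted p of 0.05 (7.09%) and 0 by DESeq2 (1.10%). Without the outlying library the counts were 0 (0.347%) and 0 (0.302%). Without LPS 21 of 22 sterol genes had a positive log2 difference, with a median of 0.22, and after LPS again 21 of 22, with a median of 0.35, against medians of 0.01 and 0.02 over all genes. The libraries were apart and higher in the knockout for 7 members without LPS (18.4% of genes) and 10 after LPS (19.4%), and lower for 1, the sterol isomerase Ebp (20.1%), and 0 (18.2%). Over the alternatives the sterol median lay between 0.02 and 0.46 without LPS and between 0.07 and 0.67 after LPS. The medians of single libraries on the sterol side had a pooled SD of 0.238 within groups, about the size of these differences. Relative to untreated wild type, they were 0.44 and 0.02 in the untreated Ing4 knockout, against 0.07 and -0.07 in wild type. After LPS they were 0.61 and 0.25 against 0.37 and -0.20. Members also shifted together between libraries, so 21 of 22 genes are not separate replicates.

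The largest single differences in the Ing4 knockout were those of Idi1, with a log2 of 0.76 ± 0.34 without LPS (edgeR adjusted p = 0.96) and 1.03 ± 0.34 after LPS (0.53). Tm7sf2, at 3.49 to 4.89 CPM in the 4 wild-type libraries and 5.99 to 9.03 in the 4 of the Ing4 knockout, had 0.72 ± 0.33 and 0.87 ± 0.34. Its libraries did not overlap between these genotypes in either condition. Msmo1, the methylsterol oxidase, stood at 173 and 142 CPM in untreated wild type and 187 and 257 in the Ing4 knockout, and with LPS at 209 and 134 against 234 and 330.1. Its log2 differences were 0.49 ± 0.31 and 0.72 ± 0.31, and neither passed. On the fatty acid side the medians were 0.09 without LPS and 0.04 after LPS, with 6 and 5 of 9 genes positive.

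In the Socs1 knockout without LPS the sterol genes were close to wild type (median 0.03, 16 of 22 positive) and the fatty acid genes a little above (median 0.24, 9 of 9). Over all genes the median was 0.01, with 6506 of 12771 positive. Relative to untreated wild type, the fatty acid medians of the 2 libraries were 0.07 and 0.48, against -0.02 and 0.02 in wild type. The pooled SD of such library medians was 0.410, larger than the difference. Members also shifted together, so 9 of 9 genes are not separate replicates. By edgeR 0 of 31 were called (0.0470% of genes), 0 at an unadjusted p of 0.05 (5.15%), 0 by DESeq2 (0.697%) and 0 without the outlying library (0.181%). The libraries were apart and higher for 7 members (19.0%) and lower for 2, Fdps and Ebp (20.4%). The largest differences were those of Acss2 (0.49 ± 0.53) and Fasn (0.45 ± 0.35), and neither passed. The libraries of Acss2 overlapped, and those of Fasn were apart, at 499.6 and 619.9 CPM against 435 and 387 in wild type.

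After LPS the largest differences of the Socs1 knockout from wild type were those of Hmgcs1 and Insig1, whose size rested largely on 1 library, and neither passed by edgeR with 12 libraries and the filter on low counts. Hmgcs1 stood at 112 and 71.5 CPM in LPS-treated wild type, at 168 and 124 in the Ing4 knockout and at 468 and 170.3 in the Socs1 knockout. Insig1 stood at 89.1 and 54.1, at 109 and 65.9 and at 316 and 112. The second Socs1 knockout library was still the next highest of the 12 for both genes, and the untreated libraries ranged from 71.2 to 133 for Hmgcs1 and from 47.8 to 77.7 for Insig1. The log2 difference from wild type was 1.80 ± 0.46 for Hmgcs1 (edgeR adjusted p = 0.24) and 1.58 ± 0.50 for Insig1 (0.34). Without the outlying library it was 0.90 ± 0.34 (0.41) and 0.65 ± 0.40 (0.59). In the authors' deposited table of 183 genes for this comparison, Hmgcs1 has a log2 of 1.57 and an adjusted p of 0.00616, and Insig1 1.35 and 0.0469. DESeq2 called Hmgcs1 (0.0074) with all 12 libraries.

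In this comparison edgeR called 0 of 31 members with 12 libraries (0.0626% of genes), 6 at an unadjusted p of 0.05 (10.6%), and 0 without the outlying library (0). DESeq2 called 1 (1.84%). With the second LPS-treated Socs1 knockout library left out instead, the first being the only one of its group, edgeR called 4 as higher (4.31% of genes): Hmgcs1 (log2 2.35, adjusted p = 0.0064), Stard4 (1.16, 0.0099), Insig1 (2.14, 0.014) and Sqle, the squalene epoxidase (0.89, 0.041). The lone library is then assumed to vary like the others. With that same library left out, LPS against untreated in the Socs1 knockout gave 2 calls (1.92% of genes), Hmgcs1 (2.17, 0.013) and Insig1 (2.48, 0.017), while wild type gave Dhcr7 (14.4%) and the Ing4 knockout Idi1, Hsd17b7 and Dhcr7 (20.4%). In the 12 libraries LPS gave Hmgcs1 a log2 of 1.62 ± 0.45 and Insig1 1.92 ± 0.50 in the Socs1 knockout (edgeR adjusted p = 0.13 and 0.11), which became 0.72 ± 0.34 and 0.99 ± 0.40 without the first LPS-treated library. In wild type the values were 0.14 ± 0.44 and 0.38 ± 0.49. DESeq2 called both in the Socs1 knockout (0.0081 and 0.0023).

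The first LPS-treated Socs1 knockout library had the highest value of all 12 for 6 of the 22 sterol genes (Hmgcs1, Sqle, Cyp51, Sc5d, Insig1 and Stard4) and 0 of the 9 fatty acid genes, where 7.96% of all genes peaked in it. Peaks were as frequent elsewhere: the first LPS-treated Ing4 knockout library was highest for 6 of the 22 sterol genes (5.54% of all genes), and the first untreated one for 9 of 31 members (5.59%). Among the 6 LPS-treated libraries alone it was highest for 12 of 31 members (25.6% of genes). For Sqle it stood at 224 CPM against 97.2 to 174 in the other LPS-treated libraries, and for Cyp51 at 298 against 104 to 229. The same library was low in interferon genes, as given above, and its median over 12 cell cycle genes was 0.29 on the log2 scale relative to untreated wild type, against -0.91 to -0.46 in the other 5 LPS-treated libraries. The part of these features in the sterol values was not tested. Fasn differed less between the pair: at 937 and 953 CPM it was 0.92 ± 0.35 above LPS-treated wild type (edgeR adjusted p = 0.41) and 0.94 ± 0.42 without the first library (0.47). All 9 fatty acid genes were positive in this comparison (median 0.40), and 7 of 9 without that library (median 0.39). Over all genes the median was 0.02 with 12 libraries, and 6568 of 12771 were positive. Relative to untreated wild type, the fatty acid library medians were 0.18 and 0.18, against -0.05 and -0.28 in LPS-treated wild type. The pooled SD of such medians was 0.410, about the size of the difference, and members shifted together. The libraries were apart and higher for 11 members (16.8% of genes), among them Hmgcs1, Insig1, Srebf2, Fasn, Acaca and Acly, and lower for 1, Ebp (18.0%).

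The differences of the LPS responses between genotypes were tested directly, and no member passed with the filter on low counts. For the Ing4 knockout minus wild type edgeR called 0 members (0 of all genes), 0 at an unadjusted p of 0.05 (0.415%) and 0 by DESeq2 (0). The values ran from -0.31 ± 0.99 for Scd2 to 0.34 ± 0.36 for Sc5d. For the Socs1 knockout minus wild type edgeR called 0 (0), 1 at an unadjusted p of 0.05 (0.799%), and DESeq2 0 (0). Hmgcs1 differed by 1.48 ± 0.63 and Insig1 by 1.54 ± 0.69, both with an edgeR adjusted p of 1, and without the outlying library by 0.58 ± 0.45 and 0.61 ± 0.53. Without that library, and with the genotype block, 0 members passed in either difference. Hsd17b7 differed by 0.08 ± 0.44 and 0.20 ± 0.44, and Dhcr7 by 0.09 ± 0.59 and 0.68 ± 0.59. The SEs of these differences ran from 0.26 for Srebf2 to 1.01 for Scd1.

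Some genes of the pathway outside the members passed with 12 libraries. Of 13 tested genes of sterol synthesis, uptake and transport, 1 was called in wild type, 2 in the Ing4 knockout and 1 in the Socs1 knockout. Gramd1a, a sterol transfer protein between the plasma membrane and the endoplasmic reticulum, rose from 41.7 and 42.0 to 139 and 114 CPM in wild type (log2 1.60 ± 0.33, edgeR adjusted p = 0.041) and by 1.41 ± 0.33 in the Ing4 knockout (0.037). The Socs1 knockout had 57.1 and 45.8 CPM untreated and 62.4 and 145 after LPS, the lower being the outlying library, and without it, with 1 LPS-treated library left, edgeR called Gramd1a there too (adjusted p = 0.0013). Of 13 tested genes of SREBP processing and sterol sensing 0 were called by edgeR in the 3 LPS comparisons. Srebf1 stood at 117 and 141 CPM in untreated wild type and 79.6 and 86.2 after LPS, with log2 values of -0.64 ± 0.25 in wild type, -0.77 ± 0.25 in the Ing4 knockout and -0.34 ± 0.25 in the Socs1 knockout. It passed without the outlying library in the Ing4 knockout only (0.048). Srebf1 and Srebf2 thus had opposite signs in each genotype.

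Among 20 tested genes of fatty acid and glycerolipid metabolism Acsl4, which activates arachidonate, rose in wild type (0.93 ± 0.20, edgeR adjusted p = 0.047) and the Ing4 knockout (1.07 ± 0.20, 0.021). Lpin1, a phosphatidate phosphatase, fell in all 3 genotypes once the outlying library was left out (log2 -3.08, -2.72 and -2.84, edgeR adjusted p = 0.0018, 0.0024 and 0.010). The Socs1 knockout value then rests on 1 LPS-treated library at 2.02 CPM, where the outlying library held 18.5 and the untreated 10.6 and 18.5. With 12 libraries Lpin1 passed in none of the genotypes (adjusted p = 0.096, 0.085 and 0.81). Of 11 tested genes of oxysterols, esterification and LXR, Abcg1, a sterol exporter, and Rxra, the partner receptor of LXR, fell in the Ing4 knockout (log2 -2.80 and -2.09, edgeR adjusted p = 0.043 and 0.029). The wild-type values were -2.23 ± 0.65 for Abcg1 (0.10) and -1.53 ± 0.43 for Rxra (0.093). Ch25h, which makes the oxysterol 25-hydroxycholesterol, was at 0 to 1.90 CPM and too low to compare. For scale, of 8 LPS response genes (Tnf, Il1b, Cxcl2, Ccl4, Nfkbiz, Zfp36, Irf7 and Ifit1) edgeR called 6 in wild type, 7 in the Ing4 knockout and 6 in the Socs1 knockout. Their median log2 change was 6.28 in wild type and 7.33 in the Socs1 knockout, where this value and those below include the outlying library. Relative to untreated wild type, their median was 3.89 in the outlying library and 6.92 in the second LPS-treated Socs1 knockout library. The LPS-treated wild-type libraries had 6.22 and 6.23. In wild type, Ing4 knockout and Socs1 knockout, Tnf rose by 6.50, 6.82 and 6.85. The cytokine gene Il1b rose by 13.62, 15.46 and 13.03. Untreated Il1b was nearly absent, at 0 to 10 counts a library, so the size and order of its log2 changes are uncertain. The neutrophil attractant Cxcl2 rose by 9.66, 11.76 and 11.05. The chemokine Ccl4 rose by 5.46, 7.18 and 7.49. Both chemokines had their smallest log2 change in wild type, where their untreated level was highest. Untreated Cxcl2 stood at 3.51 and 7.15 CPM in wild type against 0.564 to 1.54 in the knockouts, and Ccl4 at 103 and 85.9 against 17.8 to 34.6. After LPS wild type lay within the range of the knockouts. Cxcl2 stood at 4402 and 4244 against 758 to 4857, and Ccl4 at 3785 and 4499 against 818 to 6003. Nfkbiz, a nuclear IkB protein gene, rose by 6.06, 6.55 and 7.17. Zfp36, which destabilises cytokine mRNA, rose by 3.68, 3.85 and 3.60. Ifit1 rose by 9.65 in the Ing4 knockout. In wild type it stood at 3.12 and 4.30 CPM untreated and at 669 and 1883 after LPS. The Socs1 knockout had 0.607 and 2.99 against 13.6 and 1686, the 13.6 being the outlying library. Irf7 (2.98, 4.51 and 3.93) passed in none of the genotypes with 12 libraries.

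Within several groups the 2 libraries differed for most members in the same direction. The median absolute log2 ratio of the 31 members between the 2 libraries was 0.545 in LPS-treated wild type and 0.627 and 0.547 in the untreated and LPS-treated Ing4 knockout, against 0.227, 0.247 and 0.275 over all genes. In untreated wild type and the untreated Socs1 knockout it was 0.170 and 0.267, close to the 0.193 and 0.211 of all genes, and in the Socs1 knockout after LPS 0.392 against 0.395. In LPS-treated wild type the first library was higher for 21 of 22 sterol genes, with a median log2 ratio of 0.56, while 49.1% of all genes were higher in it. In the Ing4 knockout the first library was higher for 18 of 22 sterol genes without LPS (median 0.46) and 17 of 22 after LPS (0.30), and for 9 of 9 fatty acid genes in both conditions (0.82 and 0.83). In the untreated Socs1 knockout the first was higher for 7 of 22 sterol and 1 of 9 fatty acid genes (medians -0.19 and -0.32). In untreated wild type the medians were 0.13 and -0.05. Scd2 had a ratio of 3.57 between the untreated Ing4 knockout libraries and 3.02 after LPS, and Scd1 3.34 and 2.73. The pooled SD of the library medians was 0.238 for sterol and 0.410 for fatty acid genes on the log2 scale, a spread that leaves out the pairing by number. Within pairs of the same number LPS minus untreated of the sterol median was 0.30 and -0.14 for wild type, 0.17 and 0.23 for the Ing4 knockout, and 0.45 and 0.18 for the Socs1 knockout. For the fatty acid median it was -0.03 and -0.30, -0.19 and -0.25, and 0.11 and -0.30 in the same order. The sign was thus shared by both pairs except for the sterol genes in wild type and the fatty acid genes in the Socs1 knockout.

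**Figure D4:**
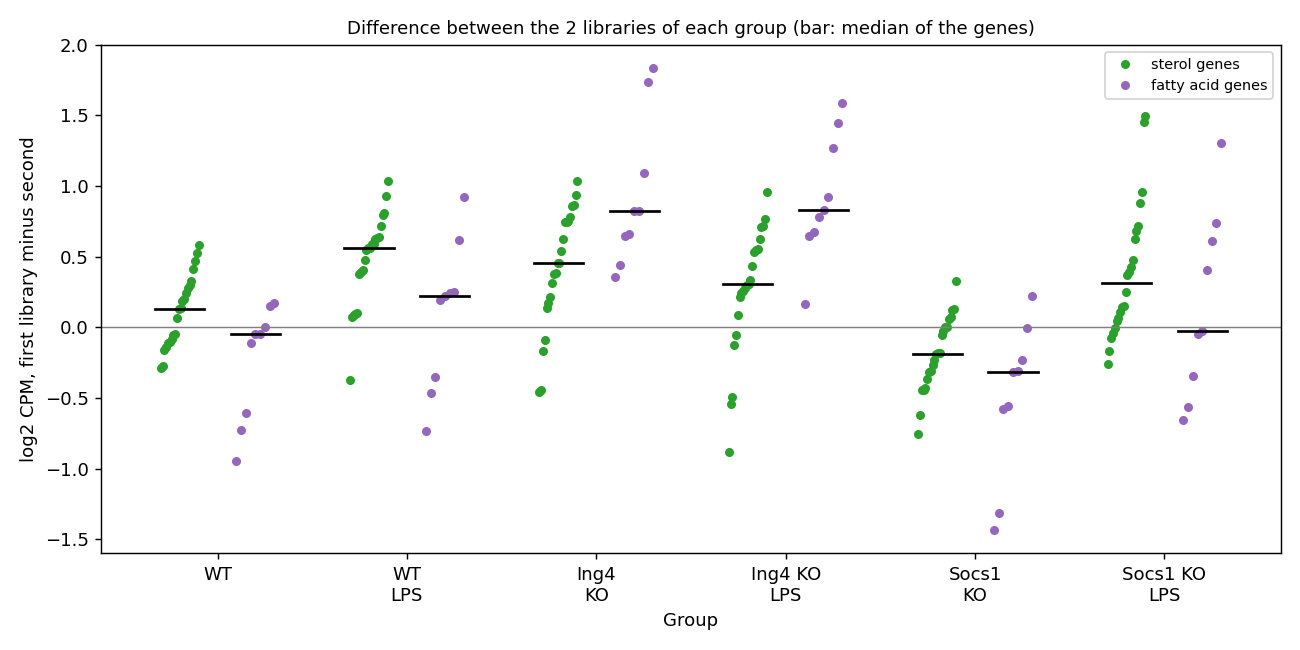
Log2 ratio of the first to the second library of each group (vertical axis), with a point for each gene, green for sterol and purple for fatty acid genes, and a bar for the median. In the Ing4 knockout all 9 fatty acid genes lie above 0 in both conditions, and in the untreated Socs1 knockout 8 of 9 lie below.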

How the data were processed

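Per the labels' protocols, poly(A) RNA of RAW264.7 cells was made into 12 stranded TruSeq libraries and read on a NextSeq (75 bases, single-end). The authors deposited whole-number read counts per Ensembl gene, unscaled. The authors' deposited tables of changed genes hold log2 fold changes and adjusted p-values, per the file headers. The submitters' processing notes list HISAT, HTSeq, StringTie, FastQC and DESeq2, and no versions are given in the sources used here. They also name GRCh38, and the treatment protocol names HEK293T, a human line, but the gene identifiers are mouse, and 1028 of 1084 genes in the authors' tables (94.8%) have the GRCm38 position, so GRCm38 is used here.

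Every column was matched to a sample by its description. Of 54232 genes, 54079 had a symbol. The members and all other lists were chosen with earlier results of these data known. Other genes are named where called in a list (up to 4 a list and comparison), with Srebf1, Ch25h and the 8 LPS response genes given regardless. 1 gene called in the lists is not reported here, and counts include it.

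Tests used edgeR 4.0.16 in R 4.3.3: genes kept by filterByExpr (12771), TMM scaling, 6 group means, robust quasi-likelihood F-test, Benjamini-Hochberg over all genes tested, called at an adjusted p of 0.05. Each SE is the size of the log2 change divided by the square root of F. CPM are TMM-scaled, and RPKM divide them by the GENCODE exon length. All adjusted p in the text come from edgeR unless DESeq2 1.42.0 is named. Library totals of 17250815 to 24377950 counts set the precision. Alternatives were RLE and upper-quartile scaling, no filter, a mean of at least 5 CPM, only the groups compared, blocks for the library number, DESeq2 and leaving out each library. First-minus-second differences over genes had correlations of 0.447 to 0.601 within a genotype (untreated against LPS) and of -0.129 to 0.156 across genotypes. The labels do not say what a number marks, so the block was put within genotypes, where every pair correlated. The fit was tested on simulated counts with 200 of 12771 genes changed in LPS-treated wild type. It recovered 8% of the 2-fold and 73% of the 4-fold changes, and 8 of 89 calls were false. In that setting 2-fold changes of randomly drawn genes were thus mostly not called. In the data more genes changed: 22.6% reached an unadjusted edgeR p of 0.05 for LPS in wild type. Recovery for the members may therefore differ, and the other comparisons were not simulated. Promoter windows are from RefSeq. Figures used matplotlib 3.10.9, with tables in pandas 2.3.3 and Python 3.11.15.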

Additional observations from a re-analysis of the deposited data

How the results depend on the processing

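With 12 libraries, RLE scaling, upper-quartile scaling and a mean of at least 5 CPM gave 0 called members in all 9 comparisons, as in the text. Of the counts of called members under the alternatives, 151 stayed at 0 as in the text and 25 did not. Of the log2 values of single members, 303 changed sign without being called. Another 66 became called with the same sign, and 5087 kept both sign and call. For LPS in wild type, no filter gave 4 called members (8.69% of genes tested) and DESeq2 2 (11.2%). Only the groups compared gave 3 (18.2%) and the replicate block by genotype 3 (14.2%). For LPS in the Ing4 knockout the values were 4 (10.8%), 4 (17.1%), 2 (15.2%) and 6 (27.2%) in the same order. There a replicate block over all genotypes gave 1 (9.79%), Hsd17b7 (log2 1.10, edgeR adjusted p = 0.035). For LPS in the Socs1 knockout no filter gave 6 (6.11%), DESeq2 3 (6.59%) and the block by genotype 1 (6.02%). For the Socs1 knockout against wild type after LPS no filter gave 6 (3.84%) and DESeq2 1 (1.84%). For the difference of LPS responses between them no filter gave 2 (0.267%), Hmgcs1 and Insig1. Leaving out 1 library in turn gave for LPS 0 to 1 called members (wild type), 0 to 3 (Ing4 knockout), 0 to 2 (Socs1 knockout) and 0 to 4 for the Socs1 knockout against wild type after LPS. The calls came without the first or the second LPS-treated Socs1 knockout library, or without either LPS-treated wild-type library, where Hsd17b7 passed in the Ing4 knockout and the Socs1 knockout. The block changed no other call. The cause was not tested.

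Over all genes the number called ranged with the setting for LPS from 28 to 2197 (wild type), 77 to 3471 (Ing4 knockout) and 0 to 2090 (Socs1 knockout). Knockout against wild type gave 1 to 516 (Ing4, untreated), 4 to 539 (Ing4, LPS), 0 to 429 (Socs1, untreated) and 0 to 1196 (Socs1, LPS), and the differences of responses 0 to 26 and 0 to 64. At this depth the lowest member, Tm7sf2 (3.49 to 9.03 CPM), passed the filter on low counts, and Ch25h, at 1.90 CPM or less, was not compared. The median of the sterol genes for LPS in wild type lay between -0.21 and 0.38 over the alternatives.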
